A study of Mus musculus with 2 samples.

Results

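The miR-15/16 and miR-497 family was described here in the forebrain of newborn mice, over 5 of the 1973 hairpin genes in the count tables. Its members were chosen by gene symbol and not by any measured value, though earlier results of these data were known. They are Mir15a and Mir16-1 of the Dleu2 locus, Mir15b and Mir16-2 of the Smc4 locus, and Mir497b. The last stands for Mir497 on the opposite strand. Small RNA under 30 nucleotides was sequenced from 2 whole forebrains of strain B6NCrl at postnatal day 0, which form 1 group of 2 biological replicates. Replicate 1 was pup 1 and replicate 2 was pup 3. Neither was treated, sex was not collected, and both labels list the same donor record. With 1 tissue, 1 age and 1 library per pup, there is no comparison between conditions, and differences between the pups are described with no test.

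MicroRNAs of this family share a seed, the bases at positions 2 to 8 that pair with target messages, and their best known targets drive the cell cycle from G1 into S phase, among them D-type cyclins, cyclin E and cyclin-dependent kinases, as well as the survival gene Bcl2. The Dleu2 pair is known as a tumour suppressor locus that is lost in chronic lymphocytic leukaemia. Smc4, the host of the second pair, encodes a condensin subunit of dividing cells. In the heart, miR-195 of the Mir497 cluster is known for its part in the arrest of muscle cell division after birth.

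The mature 5p arms are shown because the shared seed defines the family and the bases behind it tell its members apart. Sequences are RefSeq's on GRCm38.p6, written 5′ to 3′, with the seed in capitals. All 5 members had a mature sequence in that table.
mmu-miR-15a-5p: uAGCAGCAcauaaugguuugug
mmu-miR-15b-5p: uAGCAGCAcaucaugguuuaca
mmu-miR-16-5p: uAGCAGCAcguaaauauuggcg
mmu-miR-497a-5p: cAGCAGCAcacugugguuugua
mmu-miR-195a-5p: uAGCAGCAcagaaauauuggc
mmu-miR-322-5p: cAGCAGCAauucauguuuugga
mmu-miR-503-5p: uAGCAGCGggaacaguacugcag
mmu-miR-107-3p: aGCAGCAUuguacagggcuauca
mmu-miR-497b: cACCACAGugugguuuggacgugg
The first 6 carry the seed AGCAGCA. Counted from 1 at the 5′ end, miR-15b-5p differs from miR-15a-5p at 4 of 22 positions (A12C, G20A, U21C and G22A), all of them behind the seed. Between miR-15a-5p and miR-16-5p, 6 positions differ, and between miR-16-5p and miR-195a-5p 2 of 21 do. The arm of Mir503 has another last seed base, and miR-107-3p holds the same letters moved by a base, so neither has the family's seed. Mature miR-497b has an unrelated seed. Read on the other strand, it shares a stretch of 17 bases with the 21 bases of miR-497a-3p.

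Mir16-1 and Mir16-2 make the same 5p arm, identical at all 22 positions. Their hairpins are shown because they set what a count at either gene can hold. The capitals mark the longest stretch that both share.
Mir16-1: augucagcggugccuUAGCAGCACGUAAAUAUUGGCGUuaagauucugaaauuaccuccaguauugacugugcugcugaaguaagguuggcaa
Mir16-2: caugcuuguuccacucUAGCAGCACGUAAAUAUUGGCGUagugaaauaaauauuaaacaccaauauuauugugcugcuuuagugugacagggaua
This stretch has 23 bases and covers the whole 5p arm, so a read that lies inside it fits both hairpins. Compared base by base from the 5′ end, with no alignment, the 3p arms differ at 10 of 22 positions. A shift between the arms therefore counts as differences.
mmu-miR-16-1-3p: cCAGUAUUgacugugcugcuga
mmu-miR-16-2-3p: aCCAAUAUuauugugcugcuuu
Each table has a tally named for reads that map to several places, with 43.0% of all reads in pup 1 and 43.5% in pup 3. How many of these are miR-16-5p cannot be told from the tables. From the tally's name alone, a count at Mir16-1 or Mir16-2 was read as one of reads that fit 1 place, but how the counter treated shared reads is not stated. On either reading, the counts at these genes cannot be taken as the level of mature miR-16. Mir15a, Mir15b and Mir497b share no stretch of 20 bases with another hairpin of the count tables that does not overlap them. Mir497, which overlaps Mir497b on the other strand, is not in these tables.

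On GRCm38, Mir15a (ENSMUSG00000093007.1) lies on the minus strand of chromosome 14 from 61632027 to 61632110, in an intron of the long noncoding gene Dleu2. Mir16-1 (ENSMUSG00000092995.1) follows 54 bases away, from 61631880 to 61631972, and overlaps an exon of a Dleu2 transcript. On chromosome 3, plus strand, Mir15b (ENSMUSG00000065580.1) spans 69009772 to 69009835 and Mir16-2 (ENSMUSG00000065606.1) from 69009902 to 69009996, with 66 bases between them. Both are intronic in Smc4 and on its strand. Mir497b (ENSMUSG00000070109.2) lies on the minus strand of chromosome 11 from 70234692 to 70234816, across Mir497 on the plus strand from 70234717 to 70234800. Mir195a, a relative with the same seed, starts 241 bases past the end of Mir497. No gene other than microRNAs overlaps Mir497b or Mir195a in GENCODE M21. Within 10000 bases of the members, the annotation places no other microRNA gene than these.

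The reads at Mir497b came from the strand of Mir497. In pup 1, 11777 reads were counted, of which 11777 lay opposite to the annotated strand of Mir497b (100%, 95% Wilson interval 99.97 to 100). In pup 3, 8396 of 8398 reads did (99.98%, 99.91 to 99.99). The other members had no read on the opposite strand in either pup. The values at Mir497b below are therefore given as those of the Mir497 locus. Since a count pools both arms of a hairpin, the arms cannot be compared.

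Library depth was 9037087 reads assigned to a hairpin gene in pup 1 and 7678662 in pup 3, and levels are given as counts per 1000000 of these (CPM). As a check of the tissue, neural microRNAs summed to 32380.3 CPM in pup 1 and 44041.9 CPM in pup 3, led by Mir137, with 4 of 8 measured hairpins at a mean of 10 CPM or more. In the same list, Mir9-2 and the 3 Mir124a hairpins stood at 14.7 CPM or less in each pup. Mir9-3 stood at 382 CPM in pup 1 and 684 CPM in pup 3, Mir128-1 at 5104 and 6733 CPM, and Mir128-2 at 2539 and 3010 CPM. Some hairpins of this list make the same mature arm, and the part of this in their levels was not tested. Endothelial Mir126a stood at 40491 and 36865.3 CPM, erythroid hairpins summed to 228.3 and 369.99 CPM, and leukocyte hairpins to 366.6 and 483.2 CPM. The erythroid hairpins went opposite ways, with Mir451a at 192 and 350 CPM and Mir144 at 36.3 and 19.8 CPM. In such bulk tissue, fewer cells of a type and less RNA per cell cannot be told apart.

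Reads of the family made up 1.16% of the assigned total in pup 1 (95% Wilson interval 1.15 to 1.17) and 2.06% in pup 3 (2.05 to 2.07), with a mean of 1.61% ± 0.638 (SD, n = 2). All 5 members had a mean above 10 CPM. Every interval on reads here covers the counting error alone, because a pup has 1 library and the labels name no molecular identifiers.

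The Dleu2 pair led the family. Mir15a stood at 6593 CPM in pup 1 and 12220.1 CPM in pup 3, a mean of 9406 ± 3979 CPM. It was the gene of rank 32 among all hairpins in pup 1 and of rank 16 in pup 3. Its neighbour Mir16-1 stood at 2458 CPM in pup 1 and 5382 CPM in pup 3, a mean of 3920.1 ± 2068 CPM. Both hairpins were higher in pup 3, and the values of Mir15a lay above those of Mir16-1 in both pups, without overlap. The Dleu2 pair together made up 40.4% of the reads at all hairpins with the family's seed in pup 1 and 59.1% in pup 3.

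The Smc4 pair stood lower, and its partners changed places. Mir15b stood at 786 CPM in pup 1 and 716 CPM in pup 3, a mean of 751 ± 49.4 CPM. Mir16-2 stood at 467 CPM in pup 1 and 1218 CPM in pup 3, a mean of 843 ± 531 CPM. Mir16-2 was thus below Mir15b in pup 1 and above it in pup 3. The Mir497 locus, counted at Mir497b, stood at 1303 CPM in pup 1 and 1094 CPM in pup 3, a mean of 1198 ± 148 CPM (each SD, n = 2).

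By mean CPM the order was Mir15a, Mir16-1, Mir497b, Mir16-2 and Mir15b. The counts of Mir16-1 and Mir16-2 may leave out reads that fit both, so their places hold for counts only. The range of Mir16-2 over the pups overlapped those of both Mir497b and Mir15b, so Mir16-2 could not be placed between them beyond the spread. Mir497b was above Mir15b in both pups. A mature microRNA is read as a whole, so CPM was not divided by length. Per 100 bases of hairpin, the order was Mir15a (11198 CPM), Mir16-1 (4215 CPM), Mir15b (1174 CPM), Mir497b (959 CPM) and Mir16-2 (887 CPM), so that Mir15b then came before Mir497b. Small RNA libraries take up different sequences with different ease, so an order of levels between hairpins need not be an order of molecules.

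**Figure D1:**
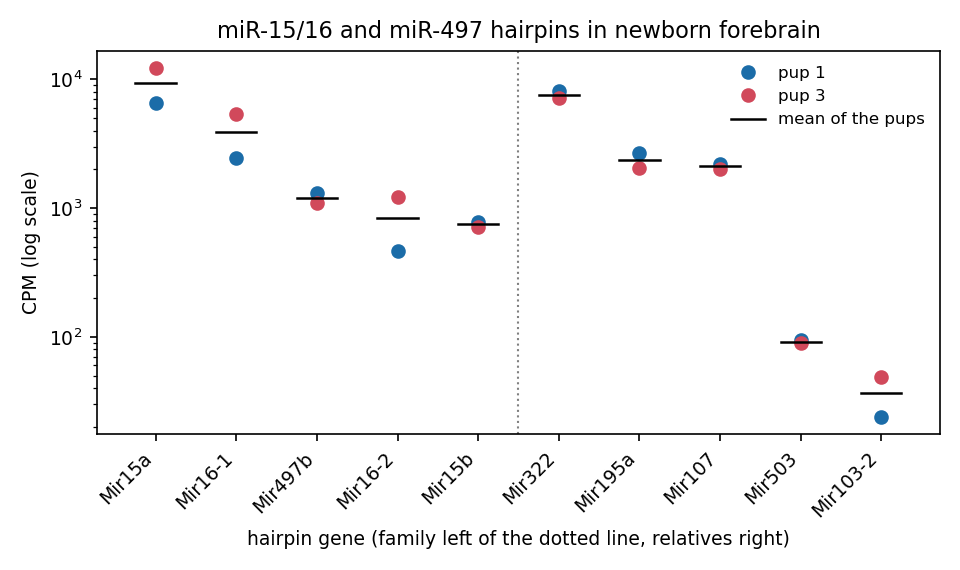
CPM on a log axis for each family hairpin (left of the dotted line) and for the relatives with a mean of 10 CPM or more (right), where each point is 1 pup and each bar the mean of the pups. Mir15a, Mir16-1 and Mir16-2 were higher in pup 3, while the points of Mir15b, Mir497b, Mir322, Mir195a and Mir107 lie close together.

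Between the pups, 3 of the 5 members were higher in pup 3 by more than a fold of 1.5 and the other 2 differed little. Ratios are of pup 3 over pup 1, with 0.5 added to each count and libraries scaled by the trimmed mean of M values (TMM), and their intervals are exact binomial 95% intervals. Mir16-2 had a log2 ratio of 1.58 (1.53 to 1.64), a 2.99-fold difference. Mir16-1 had 1.33 (1.31 to 1.35), which is 2.52-fold, and Mir15a had 1.09 (1.08 to 1.11), which is 2.13-fold. Of the 310 genes that averaged at least 10 CPM, 6 had a higher ratio than Mir16-2, 8 than Mir16-1 and 18 than Mir15a. Mir15b had a log2 ratio of 0.07 (0.01 to 0.12), and scaling by total counts turned this to -0.13. Mir497b had -0.05 (-0.09 to -0.01).

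At a fold of 1.5, 3 members were higher in pup 3 and none was lower. Among the 310 genes, 17.4% were higher in pup 3 by that fold and 15.5% were lower by it. Scaled by total counts, 12.3% of the 310 genes were higher and 23.5% lower by that fold, while 3 members were still higher and none lower. The median log2 ratio was 1.09 over the 5 members and -0.03 over the 310 genes. Under total counts these medians were 0.89 and -0.23, since that scaling moved every ratio by -0.20. A 2-fold higher level in pup 3 was reached by 3 of 5 members and 7.74% of the 310 genes with TMM, and by 2 of 5 and 3.87% under total counts, where Mir15a, at 0.89, fell short of it. The members lie in 3 clusters, so they are not independent of each other.

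MicroRNAs of the miR-200 family and the miR-183 cluster, known from epithelial and sensory cells, were also higher in pup 3. This list of 8, chosen after the values were seen, holds Mir200a, Mir200b, Mir200c, Mir141 and Mir429 of the miR-200 family, which keeps cells epithelial, and Mir182, Mir183 and Mir96 of a cluster known in sensory organs. They summed to 4498 CPM in pup 1 and 13010.5 CPM in pup 3. All 8 were at least 1.5-fold higher in pup 3 under TMM and under total counts, beside 17.4% and 12.3% of the 310 genes. The log2 ratios of the 8 ran from 1.13 for Mir183 to 2.23 for Mir182, with a median of 1.99. The 6 genes with a higher ratio than Mir16-2 all belong to this list: Mir182, Mir200a, Mir200b, Mir141, Mir96 and Mir200c. Not every microRNA known from epithelia is in the list. Mir203 and Mir205, left out of it, had log2 ratios of 0.07 and 0.24. As the list was chosen after the values were seen, these counts describe it and test nothing. The part of these microRNAs in the higher values of Mir15a, Mir16-1 and Mir16-2 was not tested.

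**Figure D2:**
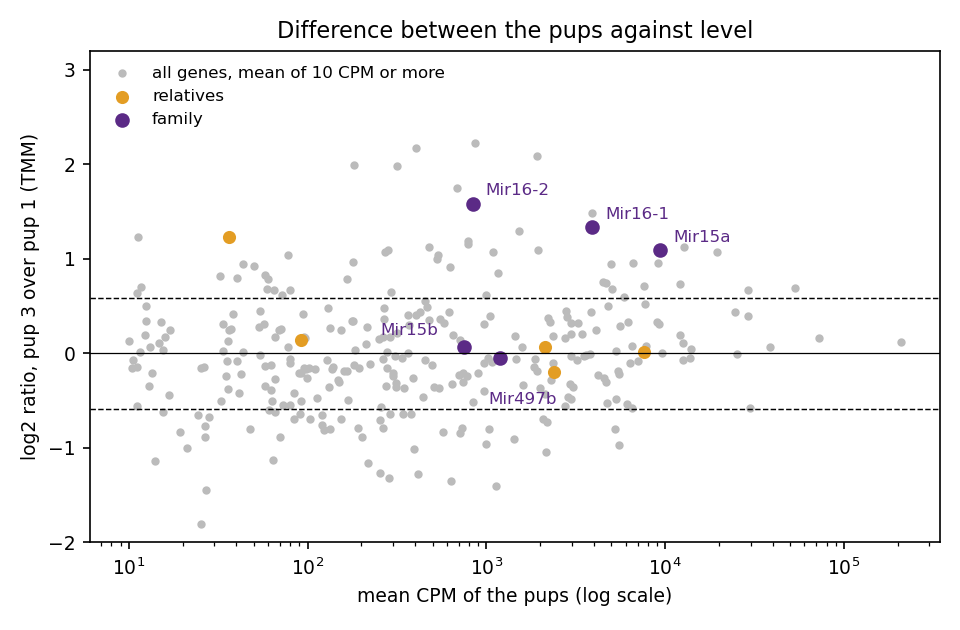
Log2 ratio of pup 3 over pup 1 (TMM scaling) against mean CPM on a log axis, where grey points are the 310 genes that average at least 10 CPM, orange points the relatives and violet points the family, and dashed lines mark a fold of 1.5 either way. Mir16-2 (1.58), Mir16-1 (1.33) and Mir15a (1.09) lie above the upper line, and Mir15b (0.07) and Mir497b (-0.05) lie near 0.

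Both hairpins with a shared stretch, Mir16-1 and Mir16-2, were among the 3 that were higher in pup 3, and so was Mir15a, which has none. Among hairpins of the count tables that do not overlap, a stretch in common was found for 69 of the 310 genes. Of these, 24.6% were at least 1.5-fold higher in pup 3, beside 15.4% of the 241 genes that share none. Their median log2 ratios were 0.08 and -0.06. The part of shared stretches in the ratios of Mir16-1 and Mir16-2 was not tested. The share of all reads tallied as mapping to several places was close in the pups, at 43.0% and 43.5%.

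The ratio of partners within a library needs no scaling between libraries. In the Dleu2 pair, Mir16-1 had 0.373 reads for each read of Mir15a in pup 1 (exact binomial 95% interval 0.367 to 0.379) and 0.440 in pup 3 (0.435 to 0.446), a 1.18-fold difference between the pups. Both partners moved nearly alike. In the Smc4 pair, Mir16-2 had 0.594 reads for each read of Mir15b in pup 1 (0.572 to 0.617) and 1.70 in pup 3 (1.64 to 1.76), a 2.86-fold difference. These hairpins lie 66 bases apart in the same host gene, and of them only Mir16-2 differed between the pups by more than a fold of 1.5. At the Mir497 locus, Mir497b had 0.483 reads for each read of Mir195a in pup 1 (0.473 to 0.494) and 0.534 in pup 3 (0.5200 to 0.548), a 1.11-fold difference.

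**Figure D3:**
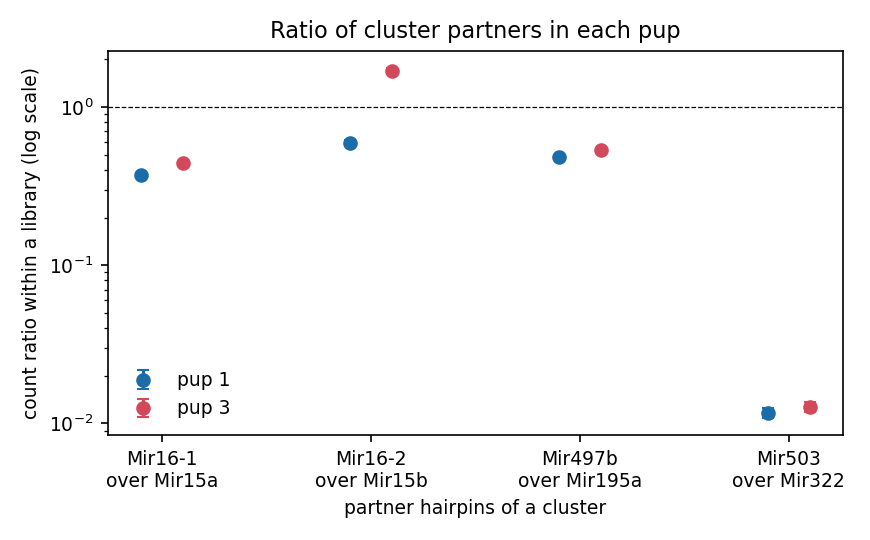
Reads of a hairpin for each read of its cluster partner, on a log axis, in pup 1 (blue) and pup 3 (red), with exact binomial 95% intervals that are mostly smaller than the points. The ratio of Mir16-2 to Mir15b crosses 1, from 0.594 to 1.70, while the pairs Mir16-1 with Mir15a, Mir497b with Mir195a and Mir503 with Mir322 differ little between the pups.

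Partners that differ between the pups were common elsewhere too. Among 106 pairs of adjacent hairpins within 10000 bases, both at a mean of 10 CPM or more, the ratios of 36.8% differed by at least 1.5-fold. Ordered by the size of this difference, the Smc4 pair was number 3 of the 106, with a log2 difference of 1.52. The Dleu2 pair was number 81 with 0.24, and the pair of Mir497b and Mir195a was number 86 with 0.14. The median over all pairs was 0.42. It was 0.51 over 18 pairs in which 1 of the partners shares a stretch with another hairpin, as in the Dleu2 and Smc4 pairs. Over 12 pairs in which both do it was 0.44, and over 76 pairs in which neither does 0.40. The percentages of pairs that differed by at least 1.5-fold were 38.9%, 33.3% and 36.8%, in the same order.

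**Figure D4:**
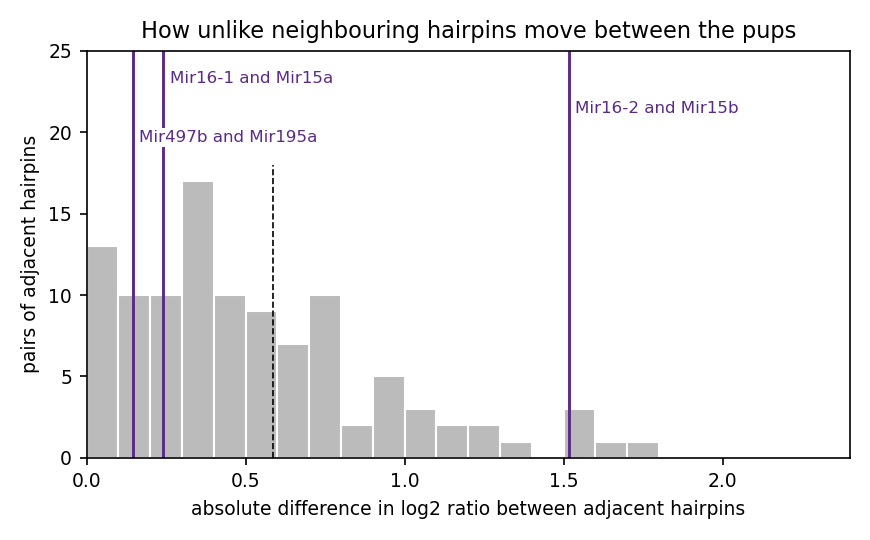
Number of adjacent hairpin pairs by the absolute difference of their log2 ratios between the pups, over 106 pairs, with the dashed line at a fold of 1.5. Violet lines mark the pairs of the family: Mir497b with Mir195a at 0.14 and Mir16-1 with Mir15a at 0.24 lie among the more alike pairs, and Mir16-2 with Mir15b at 1.52 lies in the upper tail.

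The 2 hairpins that share the miR-16 5p arm moved alike. Mir16-2 had 0.190 reads for each read of Mir16-1 in pup 1 (0.184 to 0.196) and 0.226 in pup 3 (0.221 to 0.231), a 1.19-fold difference between the pups. They lie on different chromosomes in different host genes. If reads that fit both were tallied apart, these counts leave them out. If such reads were counted at both genes or split between them, the counts are not independent. What lies behind the likeness was not tested. The 2 hairpins of the miR-15 type did not move alike. Mir15b had 0.119 reads for each read of Mir15a in pup 1 (0.116 to 0.122) and 0.0586 in pup 3 (0.0570 to 0.0602), a 2.03-fold difference.

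Outside the family, Mir322 and Mir195a were the abundant hairpins with the same seed. Mir322, the mouse form of miR-424 and a member of an X-linked cluster known in muscle differentiation, stood at 8084 CPM in pup 1 and 7121 CPM in pup 3. Its log2 ratio was 0.02 (0.00 to 0.03), which falls below 0 under total counts, where every ratio moves by -0.20. Mir195a stood at 2698 and 2048 CPM, with a log2 ratio of -0.20 (-0.23 to -0.17). In pup 1 Mir322 was above Mir15a, and in pup 3 it was below it. The remaining hairpins with the seed were hardly seen. Mir195b had 0 reads in pup 1 and 1 in pup 3, and Mir6342, Mir6353 and Mir6419 had 0 in both, where 3 reads, the limit a count of 0 allows, stand for 0.332 CPM in pup 1 and 0.391 CPM in pup 3.

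Summed over every hairpin with the seed, the share was 2.24% in pup 1 and 2.98% in pup 3. Of the 202326 such reads in pup 1, the Dleu2 pair held 40.4% (95% Wilson interval 40.2 to 40.6), Mir322 36.1% (35.9 to 36.3), Mir497b with Mir195a 17.9% (17.7 to 18.0) and the Smc4 pair 5.60% (5.499 to 5.70). Of the 228822 in pup 3, the Dleu2 pair held 59.1% (58.9 to 59.3), Mir322 23.9% (23.7 to 24.1), Mir497b with Mir195a 10.5% (10.4 to 10.7) and the Smc4 pair 6.49% (6.39 to 6.59). The Dleu2 pair held the most reads at these hairpins in both pups, and its margin over Mir322 was wider in pup 3. The counts do not tell the arms of a hairpin apart, so they are not counts of the arm with the seed. If reads that fit both Mir16 hairpins were tallied apart, as that tally's name reads, these shares leave them out.

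**Figure D5:**
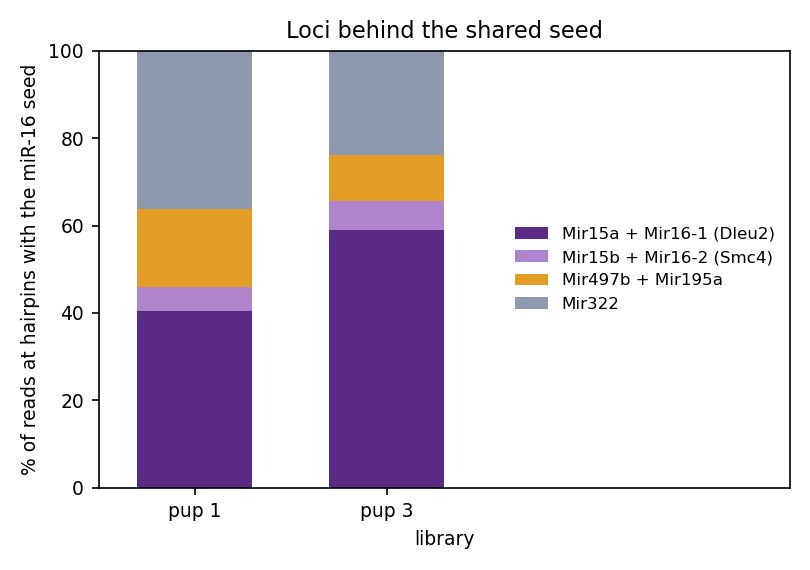
Share of the reads at hairpins with the seed AGCAGCA that each locus held, as stacked bars in % for pup 1 and pup 3. The Dleu2 pair makes up 40.4% in pup 1 and 59.1% in pup 3, and Mir322 36.1% and 23.9%.

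Of the hairpins with a near seed, Mir107 was the most abundant. Mir503, the close neighbour of Mir322, stood at 93.7 CPM in pup 1 and 90.3 CPM in pup 3. Mir107, in an intron of the pantothenate kinase gene Pank1, stood at 2219 and 2030.0 CPM, with a log2 ratio of 0.07 (0.04 to 0.10) that also falls below 0 under total counts. Mir103-2, in Pank2, stood at 23.9 and 48.8 CPM, with a log2 ratio of 1.23 (0.99 to 1.48), and Mir103-1, in Pank3, at 2.99 and 8.60 CPM, with 27 and 66 reads. The last 2 make the same 3p arm and, like the Mir16 hairpins, were higher in pup 3. Mir107 shares a stretch with them as well, but its 3p arm differs from theirs by G22C. Mir107 did not differ between the pups by a fold of 1.5. Mir103-1 is not among the 310 genes. Of the 69 with a shared stretch among these 310, 17 were at least 1.5-fold higher in pup 3 and 8 were lower by that fold. The part of a shared arm in the ratios of the Mir103 hairpins was not tested.

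Other microRNAs known to act on the step from G1 to S, a list of 26 that includes let-7, miR-17, miR-26, miR-34 and miR-449 hairpins, were measured for 24, of which 21 had a mean of 10 CPM or more. Of these, 9 were at least 1.5-fold higher in pup 3 and none was lower, beside 17.4% and 15.5% of the 310 genes. The median log2 ratio was 0.33, and -0.03 over all 310 genes. The 9 were Mirlet7i, Mirlet7f-2, Mirlet7c-1, Mirlet7c-2, Mirlet7a-1, Mirlet7a-2, Mir17, Mir20a and Mir93, so they come from few families. All of these let-7 hairpins but Mirlet7i share a stretch with another hairpin. Under total counts 7 were higher and 1 was lower, beside 12.3% and 23.5% of the 310 genes. Among the 21, 7 share a stretch with another hairpin. The most abundant were Mirlet7g with a log2 ratio of 0.16 (0.15 to 0.16), which falls below 0 under total counts, Mirlet7i with 0.69 (0.69 to 0.70) and Mirlet7b with -0.05 (-0.07 to -0.04). The list joins microRNAs that restrain division with those that promote it, such as Mir17, so its count has no direction for the cell cycle.

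The genes nearest to each member over the log2 CPM of the 2 pups came from other families. Nearest to Mir15a was Mir30a, at a distance of 0.11 on the log2 scale, with 6764 CPM in pup 1 and 11399 CPM in pup 3, followed by Mir30d at 0.46 and Mir708 at 0.51. Mir429, an epithelial microRNA, was nearest to Mir16-1 at 0.12, with 2269 and 5508 CPM, followed by Mir342 at 0.57 and Mir181d at 0.63. Next to Mir15b stood Mir340 at 0.12, Mir467e at 0.20 and Mir337 at 0.22. For Mir16-2 the nearest were Mir181b-2 at 0.28, Mir28a at 0.30 and the epithelial Mir200c at 0.48. Mir300 at 0.22, Mir101a at 0.33 and Mir188 at 0.41 were nearest to Mir497b. With 2 samples, this likeness only says that level and ratio were close.

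The promoter of Dleu2 is shown because Mir15a and Mir16-1 lie in this gene. The part of this promoter in their ratios between the pups was not tested. It covers 250 bases before to 50 after the start, at chr14:61682324-61682623 on the minus strand (RefSeq, GRCm38.p6). The capitals mark CACGTG, the letters bound by Myc and related factors, and Myc is known to repress this locus in lymphoid cells.
Dleu2 promoter: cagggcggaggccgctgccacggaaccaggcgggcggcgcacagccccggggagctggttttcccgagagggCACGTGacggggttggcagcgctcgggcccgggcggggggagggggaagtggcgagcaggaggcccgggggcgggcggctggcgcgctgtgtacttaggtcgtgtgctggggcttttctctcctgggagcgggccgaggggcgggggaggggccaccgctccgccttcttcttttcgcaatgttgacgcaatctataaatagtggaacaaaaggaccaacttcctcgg
CACGTG, which reads the same on both strands, occurs 1 time in this window, and 7.15% of 32851 promoters of the same length hold it. None of TTTCCCGC, TTTGGCGC, TTTCGCGC and TTTGCCGC, letters bound by E2F factors, occurs on either strand, and 2.26% of the promoters hold at least 1 of them. A match describes the letters only, and binding was not measured.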

How the data were processed

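For each microRNA gene the authors deposited read counts, on mm10 and annotation M4 per the notes beside each table. Aligner and counter: not given in the sources used here. There are 3 count columns. In all 1973 genes the first is the sum of the others, which were read as the sense and the opposite strand. The first was used, and 4 tallies that name no gene stayed out of library sizes, which left 40.2% of all reads in pup 1 and 40.8% in pup 3. Names and positions came from GENCODE M21 on GRCm38 by gene identifier, matching 1894 genes, and sequences from RefSeq on GRCm38.p6. Library factors of edgeR 4.0.16 (TMM) were 1.07 for pup 1 and 0.933 for pup 3. There was no test, since 1 group has none. Intervals are exact binomial for ratios and Wilson for shares, at 95%. Scripts were tested on simulated counts.

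The members, lists and named genes were chosen with earlier results of these data known. By rule the text names all members, the seed relatives, the 3 genes nearest to each member, the 3 most abundant genes of the G1 to S list and neighbours within 10000 bases. The other genes of that list, partner ratios, epithelial and sensory hairpins, loci, adjacent pairs and motifs were chosen after values were seen. Alternatives were other scalings (DESeq2 1.42.0 size factors, total counts), strand columns, added counts, folds and each pup alone. Software was R 4.3.3, Python 3.11.15, pandas 2.3.3, scipy 1.17.1 and numpy 2.4.6, with matplotlib 3.10.9 for plots.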

Additional observations from a re-analysis of the deposited data

How the results depend on the processing

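Scaling by total counts changed the ratios most. The log2 ratio of pup 3 over pup 1 was then 0.89 for Mir15a, 1.13 for Mir16-1, 1.38 for Mir16-2 and -0.25 for Mir497b, and it turned to -0.13 for Mir15b, as every ratio moved by -0.20. DESeq2 size factors, TMM limited to genes that reach 10 counts in each pup, the strand column with most reads and 5 added counts left all 5 ratios within their counting intervals. At a fold of 1.5, 3 members were apart with TMM, DESeq2 size factors and total counts. With TMM, 3 were also apart at a smaller fold and at a fold of 2, but total counts with a fold of 2, added after seeing the data, left 2, without Mir15a. Over all reads of the library, the family's share was 0.655%. With column 4 for all genes it was 5.28%, since that column keeps nearly all of Mir497b's reads over a much smaller total (2.69% of assigned reads in pup 1, 1.91% in pup 3). Without replicate 1 the share was 2.06% and without replicate 2 it was 1.16%. Reads opposite to Mir497b made up 99.99% over both pups and 100% in pup 1 alone. With 1 library per pup, no setting can give the spread within a pup, and depth did not limit the members, which had 4222 reads or more each.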
